A study of Mus musculus with 24 samples.

Results

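CB-R1 macrophages were compared with and without flagellin on 6 of the series' 24 arrays, chosen by their titles: 3 of cells that received flagellin and 3 of cells left unstimulated. CB-R1, titled C3Bir.B6-Cdcs1 Il10-/-, is a congenic mouse strain with the background of the colitis-susceptible C3Bir strain and a long chromosome 3 segment of the resistant B6 strain, which holds the colitis locus Cdcs1. The other strains were C3Bir-Il10-/-, B6-Il10-/- (C57BL/6J-Il10tm1Cgn) and BC-R3, the reverse congenic with the B6 background and the C3Bir form of Cdcs1, each with 3 arrays per condition. All 4 strains, the controls included, carried the Il10tm1Cgn allele, which disrupts the gene of an anti-inflammatory cytokine. Bone marrow of 3 male mice per genotype, whose age the labels do not state, was cultured for 6 days in serum-containing medium, and Cbir1 flagellin was added at 1 µg/mL for the last 4 h. Each RNA sample pooled 3 wells. The labels say that a donor's cells were divided between both conditions, but not which numbered array came from which mouse. The p-values therefore describe only how far these arrays vary, which may be partly technical.

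Flagellin is the protein of the bacterial flagellum. Outside the cell it is sensed by TLR5, which signals through the adaptor MyD88 to NF-kB and MAP kinases, and inside the cell by NAIP proteins, which assemble the NLRC4 inflammasome and activate caspase 1. NF-kB then raises genes of cytokines, chemokines and its own inhibitors. Interferons, where macrophages make them, raise antiviral genes. Whether flagellin led to interferon here was not tested.

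The arrays report log2 signal for 18193 genes, each through 1 probe set, with correlations between the 6 CB-R1 arrays of 0.995 to 0.998. Medians and lower quartiles of arrays are given over all 45033 probe sets with values, and the medians of these 6 arrays were 6.60 to 6.64. There is no call of detection, and values near the lower quartile of an array, 5.35 to 5.39, may be background. The Il10 probe set gave 6.81, 6.76 and 6.63 on unstimulated arrays 1 to 3 and 6.74, 6.72 and 7.03 on flagellin arrays 1 to 3. These sets overlap, and since every strain carries the allele, the values check no group label. The macrophage label was borne out by 9 measured markers, among them Csf1r and Cd68, with a mean of 12.17 to 12.43. Neutrophil and granule genes were also high: the mean of 10 such markers was 11.46 to 11.73 on the 6 arrays, against 9.96 to 11.39 on the 18 arrays of the other strains. S100a8 lay at 13.82, 13.94 and 13.85 without flagellin and at 13.71, 13.87 and 13.70 with it. In RNA of a mixed culture, more cells of a type and more RNA per cell cannot be told apart. Of these 10 markers 0 passed any test of the flagellin change described here, their median change was 0.01, and their part in the results was not tested. The 11 measured stromal cell markers averaged 8.11 to 8.53 without and 8.19 to 8.39 with flagellin. Col1a2 stood at 11.82, 11.18 and 11.09 without it, while Lum and Thy1 lay near the lower quartile. The stromal median change was -0.17, -0.05 and 0.12 in pairs 1, 2 and 3, and 0 were called.

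**Figure D1:**
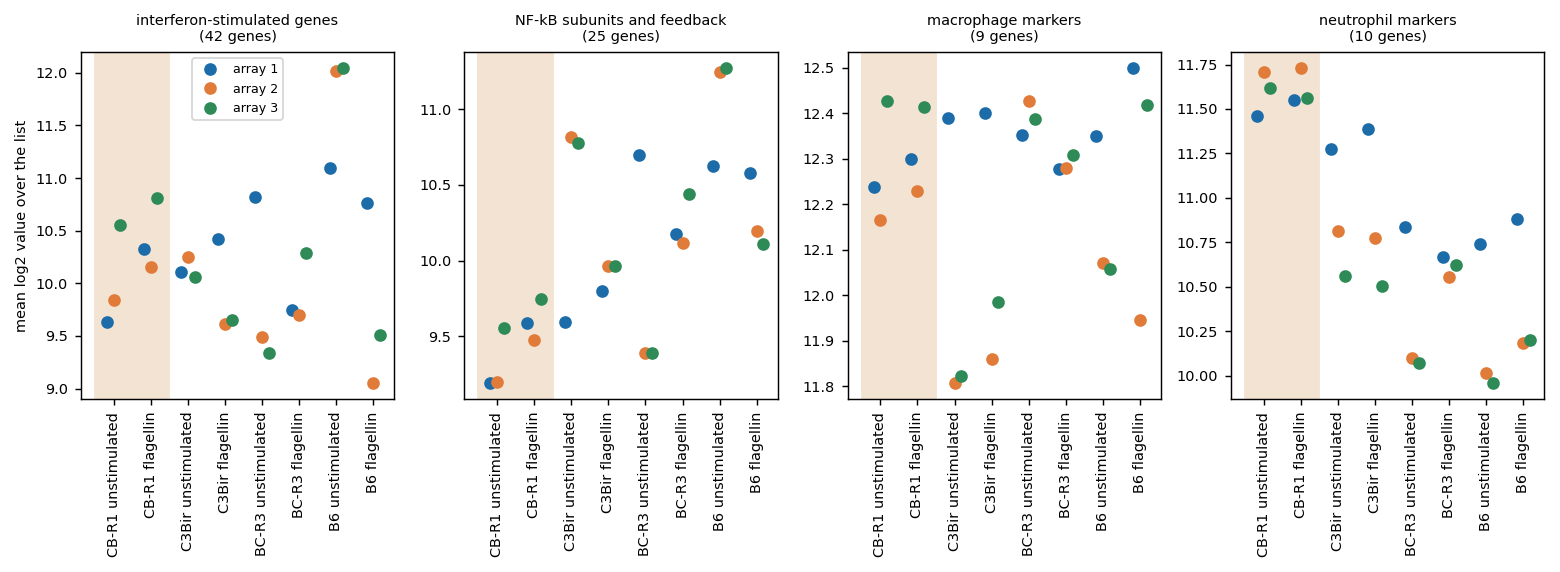
Mean log2 value (vertical axes, scales differ) over the interferon-stimulated genes, the NF-kB list, the macrophage markers and the neutrophil markers on all 24 arrays, grouped by strain and condition, 1 point per array and shading for CB-R1. The neutrophil markers are highest on the 6 CB-R1 arrays, and the NF-kB list is lowest on CB-R1 unstimulated arrays 1 and 2, at 9.19 each.

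The first comparison asked which genes flagellin changed in CB-R1 macrophages. In a limma fit of all 24 arrays, which ignores array numbers, 0 of 18193 genes passed an adjusted p of 0.05, and 517 genes, 2.84%, had an unadjusted p under it. The same test on the 6 CB-R1 arrays alone also called 0 genes, where 1068 genes, 5.87%, had an unadjusted p under 0.05 and no adjusted p was below 0.58. Same-numbered CB-R1 arrays deviated together from their group means, with correlations across all genes of 0.31, 0.30 and 0.50 for numbers 1, 2 and 3, and each array correlated best with its own number. A fit of the 6 arrays that compares within numbers, called the paired fit here, called 68 genes, 0.374% of those tested. Of these 63 were higher with flagellin (0.346% of all genes) and 5 were lower (0.0275%), with 1911 genes at an unadjusted p under 0.05.

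The calls rest on the pairing, since the changes themselves are the same in all 3 fits. The pairing was itself taken from the values of these arrays, and the paired p-values do not account for that choice. The median SE of the 68 changes on the log2 scale was 0.38 with 24 arrays, 0.19 with 6 arrays unpaired and 0.08 in the paired fit, which has 2 residual degrees of freedom. The count of 68 became 18 after quantile normalization, 6 when a gene's probe sets were averaged, and 0 when the paired fit shared its spread with C3Bir or with all strains. It became 152 without pair 2 and 103 without pair 3. Whichever pair was left out, 44 of the 68 genes were called, 43 higher and 1 lower, and Tlr2, Usp18, Pde4b, Cxcl3 and Dmxl1 were among the others. The 18 genes called after quantile normalization included Socs3, Cxcl10, Fpr2, Sod2, Tlr1 and Fas, but not Acod1, Cxcl2, Il1b, Ifit1, Nfkbiz or Tlr2. In what follows, a gene that rose or fell did so in the paired fit, and none did in the unpaired fits. Counts of calls in gene lists stand against 0.346% of all genes that rose and 0.0275% that fell.

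**Figure D2:**
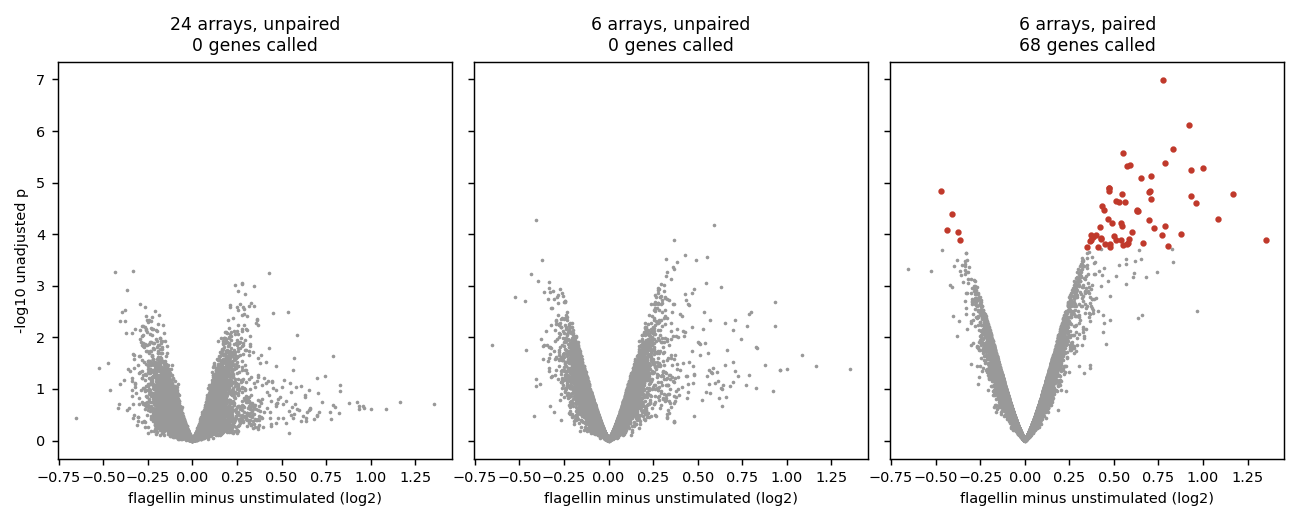
Flagellin minus unstimulated on the log2 scale (horizontal axes) against -log10 of the unadjusted p (vertical axis) for 18193 genes in the unpaired fit of 24 arrays, the unpaired fit of 6 and the paired fit of 6, with genes at an adjusted p under 0.05 in red. The horizontal positions are the same in all 3 panels, and 0, 0 and 68 genes are red.

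The rises were moderate. They ran from 0.35 to 1.36 on the log2 scale with a median of 0.57, and 4 of the 63 were at least 2-fold: Acod1, Cxcl2, Cxcl10 and Cd69. For Cd69, unstimulated array 1 lay below the lower quartile. The unstimulated culture numbered 3 was itself higher in these genes. In 60 of the 63, unstimulated array 3 lay above unstimulated arrays 1 and 2, by a median of 0.64 over their mean. In 33 it lay above the lowest flagellin array. Array 3 also stood apart beyond these genes. Over all genes, 159 lay more than 0.5 above both other unstimulated arrays on array 3, against 35 on array 1 and 17 on array 2. The median change of the 63 genes was 0.75, 0.58 and 0.40 in pairs 1, 2 and 3, and in 48 of them the change was smallest in pair 3. In 30 of the 63 all flagellin arrays lay above all unstimulated arrays. Over all genes this held for 5.79%, but the calls and this count come from the same arrays, so nothing is read from it.

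Among genes of soluble mediators, chemokines that recruit neutrophils and T cells and the cytokine gene Il1b rose. Cxcl2, a neutrophil chemoattractant, stood at 7.48, 7.36 and 9.34 on unstimulated arrays 1 to 3 and at 8.996, 8.83 and 9.87 on flagellin arrays 1 to 3. Each flagellin array was above its unstimulated partner, but unstimulated array 3 was above flagellin arrays 1 and 2. The change was 1.17 ± 0.15 (log2 ± SE), or 2.24-fold (limma, paired, adjusted p 0.0162). The interferon-induced T cell chemokine Cxcl10 gave 7.83, 8.02 and 9.42 unstimulated and 9.29, 8.82 and 10.17 with flagellin, a 2.00-fold rise (limma, paired, adjusted p 0.0113). Il1b, the gene of interleukin 1 beta, gave 7.77, 7.79 and 8.88 unstimulated and 8.87, 9.04 and 9.33 with flagellin, a rise of 0.93 ± 0.12 (log2 ± SE, limma paired adjusted p 0.0165). In both genes the overlap between conditions came from unstimulated array 3. Cxcl16, a transmembrane chemokine and scavenger receptor, did not overlap, with 11.26, 11.26 and 11.80 against 11.95, 11.90 and 12.08.

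Of 26 chemokine genes 5 rose, namely Cxcl2, Cxcl10, Cxcl16, Ccl12 and Cxcl3, and 0 fell. Cxcl3, near the bottom of the scale at 3.62 to 3.91 without and 3.94 to 4.75 with flagellin, is given as signal only. The list's median change was 0.15 against -0.01 over all genes, and 13 of 26 members were higher in all 3 pairs, against 15.5% of all genes. Ccl5, another T cell chemokine, changed by 0.61 ± 0.12 but missed the threshold (limma, paired, adjusted p 0.0841).

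Other inflammatory cytokine genes did not pass. Of 21 measured, Il1b rose and 0 fell, and the median change was 0.10. The interferon gene Ifnb1 was among those that did not pass. Tnf, the gene of tumour necrosis factor, stood at 8.41, 8.48 and 8.61 unstimulated and 8.74, 8.67 and 8.77 with flagellin, so its arrays did not overlap. Its change was 0.23 ± 0.06 (log2 ± SE, limma paired adjusted p 0.211). Il6 stayed at 3.88 to 4.12 on all 6 arrays and Il12b, of the subunit that interleukins 12 and 23 share, at 5.55 to 5.90, both near or below the lower quartile. Nos2, of inducible nitric oxide synthase, lay between 6.26 and 6.42 on the 6 arrays.

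**Figure D3:**
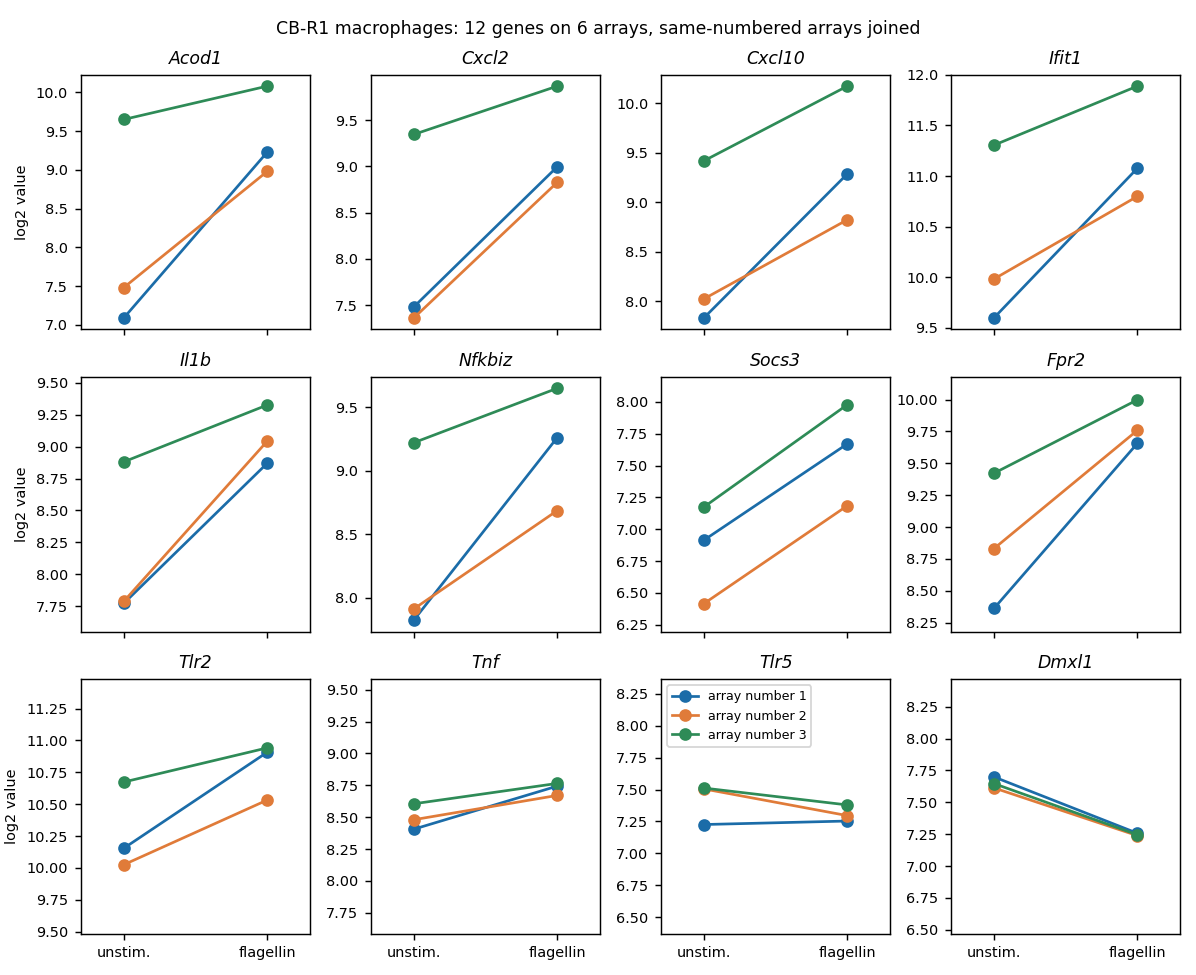
Log2 values (vertical axes, scales differ) of 12 genes on the 6 CB-R1 arrays, with unstimulated and flagellin arrays of the same number joined by a line. In the first 9 panels every line climbs and array 3 starts highest, Tnf climbs by 0.23 on average, Tlr5 does not climb on all arrays, and Dmxl1 drops on all 3.

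Of 25 measured genes in the list of NF-kB subunits and feedback 4 rose, Nfkbiz, Socs3, Sod2 and Birc3, and 0 fell. The median change was 0.29, and 18 members were higher and 2 lower in all 3 pairs, against 15.5% and 17% of all genes. Socs3, an inhibitor of cytokine receptor signalling, had the lowest p of all genes. It stood at 6.91, 6.42 and 7.17 unstimulated and 7.67, 7.18 and 7.98 with flagellin, so each pair moved by a like amount and the lowest flagellin array lay just above the highest unstimulated one. The change was 0.78 ± 0.06 (log2 ± SE, limma paired adjusted p 0.00185), while its SE was 0.22 unpaired. Sod2, the mitochondrial superoxide dismutase and an NF-kB target, rose 1.63-fold from 10.22, 10.23 and 10.96 to 11.14, 10.98 and 11.41, without overlap.

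Nfkbiz, of the nuclear NF-kB co-regulator IkB-zeta, gave 7.83, 7.91 and 9.22 against 9.26, 8.69 and 9.65. Here unstimulated array 3 was higher than flagellin array 2. The change was 0.88 ± 0.14 (log2 ± SE, limma paired adjusted p 0.0398). Birc3, a ubiquitin ligase of the TNF receptor pathway, rose 1.46-fold. Nfkbia, the inhibitor IkB-alpha, had 0.32 ± 0.07 (log2 ± SE, limma paired adjusted p 0.0884), and Tnfaip3, the deubiquitinase A20, had 0.21 with an adjusted p of 0.295 in the same limma fit.

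The antiviral genes formed the largest group of calls. Of 42 interferon-stimulated genes 11 rose and 0 fell, where 0.346% of all genes rose. The median change was 0.35, and 36 were higher in all 3 pairs, against 15.5% of all genes. In only 1 of the 42 did all flagellin arrays lie above all unstimulated arrays, against 5.79% of all genes. The list's median change was 0.60 in pair 1, 0.27 in pair 2 and 0.25 in pair 3. Its mean level was 9.63 to 10.55 on the unstimulated arrays and 10.16 to 10.81 on the flagellin arrays, and these ranges overlap. The 11 calls became 2 after quantile normalization and 1 with averaged probe sets, and were 12, 26 and 10 without pairs 1, 2 and 3, while the median stayed between 0.24 and 0.43 in these settings.

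Ifit1, an antiviral protein that binds foreign RNA, gave 9.60, 9.98 and 11.30 unstimulated and 11.08, 10.80 and 11.89 with flagellin. Unstimulated array 3 exceeded flagellin arrays 1 and 2. The rise was 0.96 ± 0.13 (log2 ± SE, limma paired adjusted p 0.0178). Ifit2 and Ifit3 rose by 0.77 and 0.79; members of this family resemble each other, and cross-hybridisation between them was not examined. Rsad2, the antiviral enzyme viperin, rose by 0.73 from a mean already at 11.92, and Stat2, a transcription factor of the interferon response, by 0.63. The immunity-related GTPases Igtp and Irgm2 rose by 0.58 and 0.56, and the interferon feedback inhibitor Usp18 by 0.55. Mx1, an antiviral GTPase, had 0.68 ± 0.14 and missed the threshold (limma, paired, adjusted p 0.0884), as did Irf7, a transcription factor of interferon induction, with 0.33.

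For genes that rose together, the 250 bases upstream of the transcription start were searched on both strands for a pair of motifs: the core of the interferon-stimulated response element (GAAA, any 2 bases, GAAA) and the NF-kB consensus. Promoters of 52 of the 63 genes that rose could be matched. The interferon element core was found in 13 of these 52, 25% of them, against 3.04% of 27025 promoters of the same length and 2.63% of the 14452 that belong to genes tested here. The NF-kB consensus was found in 9 of 52, or 17.3%, against 7.01% of all promoters and 8.39% of those of genes tested. Some matched genes are neighbours of 1 family: Ifit1, Ifit3 and Ifit1bl1 on chromosome 19 and Igtp and Irgm2 on chromosome 11 for the interferon element core. For the NF-kB consensus Cxcl2 and Cxcl3 on chromosome 5 are such neighbours. The matches may therefore not be separate occurrences. These shares are descriptions of the letters, with no test. No match of either motif was found for Acod1, Il1b, Socs3, Birc3, Fpr2 or Fas, and Ifit2 had no interferon element core. Below are an antiviral gene, both chemokines described above, and Tlr2, all of which have a match, with motif matches in capitals. All are 5′ to 3′ on the strand of the gene, from RefSeq on GRCm38.p6. The windows are Ifit1 at chr19:34640639-34640888 (plus strand), Cxcl10 at chr5:92348890-92349139 (minus), Cxcl2 at chr5:90903649-90903898 (plus) and Tlr2 at chr3:83841609-83841858 (minus).
Ifit1: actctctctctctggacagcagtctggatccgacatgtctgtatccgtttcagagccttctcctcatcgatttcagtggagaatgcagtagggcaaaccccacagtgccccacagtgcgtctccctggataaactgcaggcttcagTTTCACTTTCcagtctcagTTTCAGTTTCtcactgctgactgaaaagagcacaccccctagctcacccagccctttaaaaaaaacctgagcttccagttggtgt
Cxcl10: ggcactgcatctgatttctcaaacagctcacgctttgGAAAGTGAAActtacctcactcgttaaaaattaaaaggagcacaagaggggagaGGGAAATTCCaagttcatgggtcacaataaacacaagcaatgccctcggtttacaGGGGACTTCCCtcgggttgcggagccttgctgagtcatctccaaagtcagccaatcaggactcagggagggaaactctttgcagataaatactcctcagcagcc
Cxcl2: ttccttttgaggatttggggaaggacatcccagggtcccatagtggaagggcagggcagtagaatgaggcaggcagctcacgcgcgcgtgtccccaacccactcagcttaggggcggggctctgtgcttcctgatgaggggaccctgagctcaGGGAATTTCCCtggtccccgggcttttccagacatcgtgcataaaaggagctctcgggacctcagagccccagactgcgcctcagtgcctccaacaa
Tlr2: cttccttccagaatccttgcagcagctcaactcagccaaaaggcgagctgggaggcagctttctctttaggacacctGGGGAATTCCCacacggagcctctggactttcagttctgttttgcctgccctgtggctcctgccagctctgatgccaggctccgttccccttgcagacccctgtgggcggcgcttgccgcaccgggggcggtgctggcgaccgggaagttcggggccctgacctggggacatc
In Ifit1 the capitals are a pair of interferon element cores read on the opposite strand. In Cxcl10 the first capitals are an interferon element core and the others NF-kB matches, some of them overlapping, and Cxcl2 and Tlr2 show NF-kB matches only.

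Effector genes of activated macrophages gave the largest single change. Of 29 measured 6 rose, Acod1, Fpr2, Saa3, Clec4e, Mmp14 and Cd40, and 0 fell, while the list's median change was 0.07. Acod1, which makes the metabolite itaconate, stood at 7.09, 7.48 and 9.65 unstimulated and at 9.23, 8.98 and 10.08 with flagellin. Its unstimulated array 3 was higher than flagellin arrays 1 and 2, and the changes within pairs were 2.14, 1.50 and 0.43. The mean change was 1.36 ± 0.23, or 2.56-fold (log2 ± SE, limma paired adjusted p 0.0423). Fpr2, a receptor for formylated bacterial peptides, rose 1.91-fold from 8.36, 8.83 and 9.42 to 9.66, 9.76 and 10.00, and its arrays did not overlap. Saa3, an acute-phase protein of macrophages, rose by 0.70, and Clec4e, the mycobacterial glycolipid receptor Mincle, by 0.66. The matrix metalloproteinase gene Mmp14 rose by 0.63, also without overlap, and Cd40, a costimulatory receptor, by 0.63 with overlap. The calls in the chemokine, NF-kB and effector lists, 5, 4 and 6, became 2, 2 and 1 after quantile normalization and 0, 1 and 0 with averaged probe sets.

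The sensors of flagellin themselves did not pass. Tlr5 gave 7.23, 7.51 and 7.51 unstimulated and 7.25, 7.30 and 7.38 with flagellin, a difference of -0.10 ± 0.07 (log2 ± SE, limma paired adjusted p 0.633). Naip5, which binds flagellin in the cytosol, gave 8.72, 8.79 and 9.03 against 8.84, 8.86 and 8.91, and Naip6 differed by 0.02. Nlrc4 was not analysed here. Of 12 measured genes of flagellin sensing and the inflammasome, Mefv rose and 0 fell. Mefv, of the pyrin inflammasome, rose 1.62-fold, from 7.35, 7.28 and 8.12 to 8.24, 8.09 and 8.51, with flagellin array 2 just under unstimulated array 3. Casp1 had 0.19 ± 0.06 (log2 ± SE) and Nlrp3 0.02 ± 0.06, neither past the threshold.

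Among Toll-like receptors and adaptors, the pair that senses bacterial lipopeptides rose, 2 of 22 measured genes, and 0 fell. Tlr1 gave 5.65, 5.61 and 6.46 unstimulated and 6.74, 6.20 and 7.27 with flagellin, a change of 0.83 ± 0.09 (log2 ± SE, limma paired adjusted p 0.0113), with the unstimulated arrays not far above the lower quartile. Tlr2 gave 10.15, 10.03 and 10.67 against 10.91, 10.53 and 10.94, a 1.42-fold rise (limma, paired, adjusted p 0.0423). Both overlapped through unstimulated array 3. Tlr4, the receptor of lipopolysaccharide, differed by 0.01 and Myd88 by 0.12.

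Antioxidant and metabolic genes gave single calls. Of 17 NRF2 and antioxidant genes, Srxn1, a reductase of oxidised peroxiredoxins, rose 1.49-fold, from 9.71, 9.66 and 10.32 to 10.39, 10.47 and 10.55, without overlap. Of 19 genes of glycolysis and hypoxia, Egln3, a prolyl hydroxylase that marks hypoxia-inducible factor, rose by 0.47, and again the groups did not overlap. Neither list had a member that fell, and their median changes were 0.10 and 0.08.

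Some calls lay outside every list or were chosen for their values after these had been seen. Fas, the death receptor, and Slc39a4, a zinc transporter, were among the 6 genes called in all of the paired fit, quantile normalization and the mean of probe sets, with Socs3, Tlr1, Igtp and Ifit1bl1. Fas stood at 6.67, 6.61 and 6.87 unstimulated and 7.24, 7.13 and 7.45 with flagellin, a rise of 0.55 ± 0.06 (log2 ± SE, limma paired adjusted p 0.0113) with no overlap. Slc39a4 gave 6.03, 5.90 and 6.19 against 6.72, 6.53 and 6.63, again with no overlap, and had the same adjusted p. Ptger4, the EP4 receptor of prostaglandin E2, rose by 0.42, Pde4b, a cyclic AMP phosphodiesterase, by 0.43, and Gpr84, a receptor of medium-chain fatty acids, by 0.80. Cd69, a lymphocyte activation marker, rose from 4.91, 5.88 and 6.79 to 6.67, 6.76 and 7.41. Its unstimulated array 1 lay below the lower quartile, so no fold is given. The T and NK cell markers, 7 measured, averaged 6.34 to 6.45 without and 6.34 to 6.38 with flagellin, and 0 of them were called.

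The 5 genes that fell did so by 0.37 to 0.47 on the log2 scale. Dmxl1, whose protein acts with the vacuolar proton pump, gave 7.70, 7.61 and 7.65 unstimulated and 7.26, 7.24 and 7.25 with flagellin. These groups lay clear of each other, which over all genes held in this direction for 5.48%, and the limma paired adjusted p was 0.0242. Samd4, an RNA-binding translational repressor, fell by 0.47 and alone of the 5 was called whichever pair was left out; 1 of its 3 other probe sets had the same sign. Slc18b1, a vesicular polyamine transporter, Dkk2, a secreted Wnt modulator, and Mex3b, an RNA-binding protein, were near the lower quartile.

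**Figure D4:**
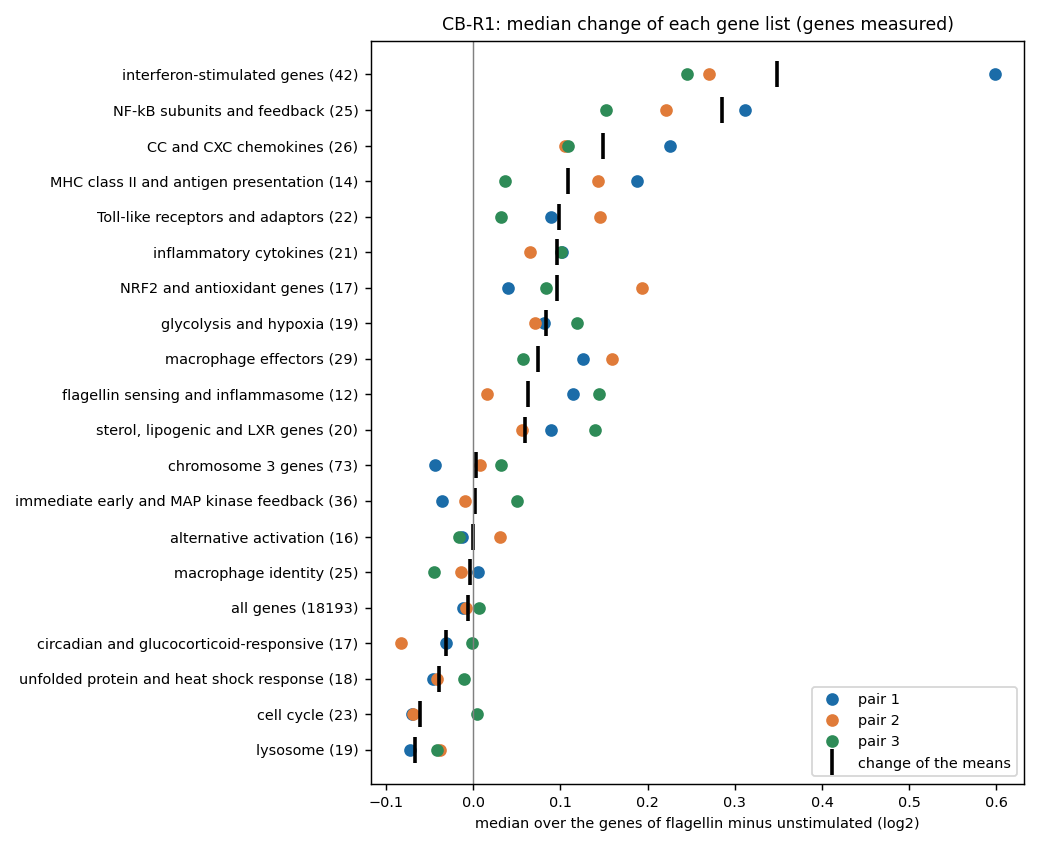
Median over each gene list of flagellin minus unstimulated on the log2 scale (horizontal axis), for pairs 1, 2 and 3 (points) and for the group means (bars), with the number of genes measured. The interferon-stimulated genes (0.35) and the NF-kB list (0.29) lie farthest to the right, and all genes lie at -0.01.

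The 14 genes of MHC class II and antigen presentation had 0 calls, but their median change was 0.11. Of these 14, 7 were higher and 2 lower in all 3 pairs, against 15.5% and 17% of all genes. In 0 of them did all flagellin arrays lie above all unstimulated arrays, and in 1 all lay below, against 5.79% and 5.48% of all genes. Other gene groups had medians near that of all genes. Immediate early genes and MAP kinase feedback genes, 36 measured, had 0 calls and a median change of 0.00. Of these 36, 10 were higher and 7 lower in all 3 pairs, against 15.5% and 17% of all genes. Fos and Ier3 had the largest changes of that list among genes of sufficient level, and neither passed. Macrophage identity genes, 25 measured, and alternative activation genes, 16 measured, also had 0 calls and medians of 0.00. Of 73 measured genes in a list from chromosome 3, Tlr2 rose and 0 fell, and their median was 0.00.

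The next question was whether the flagellin change of CB-R1 differed from that of the strains it was made from. C3Bir shares its background, and B6 the origin of its chromosome 3 segment. Of the 63 genes that rose in CB-R1, 53 had a negative change in B6, against 54.5% of all genes. In C3Bir 58 of the 63 were negative, against 48.9% of all genes. In BC-R3 54 of the 63 were positive, against 48.4% of all genes, and without any 1 BC-R3 array 42 to 62 were. Il1b changed by 0.93 in CB-R1, -1.71 in C3Bir, -2.92 in B6 and 0.89 in BC-R3 (log2, SE 0.78 each). Acod1 changed by 1.36, -1.44, -2.19 and 1.25 in the same order, with an SE of 1.01.

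Against C3Bir, the difference of the changes passed for 0 genes (limma, 24 arrays, 894 genes or 4.91% at an unadjusted p under 0.05, lowest adjusted p 0.91). Among genes with an unadjusted p under 0.05 and a CB-R1 mean of at least 7 in the higher condition, Il1b differed by 2.64 ± 1.10 (log2 ± SE), Fpr2 by 2.48 ± 1.03 and Saa3 by 2.46 ± 1.01, each with an adjusted p of 0.91. Acod1 differed by more, 2.80 ± 1.43 (log2 ± SE), but its unadjusted limma p was 0.0654. Mertk, a receptor for apoptotic cells, had -1.15 ± 0.50. Arrays of C3Bir also paired by number, with correlations of 0.48, 0.31 and 0.38. A paired fit of the 12 arrays called 0 genes too, where 2635 had an unadjusted p under 0.05 and no adjusted p was below 0.0959. When array 1 of the unstimulated B6, C3Bir and BC-R3 groups was left out, an exclusion picked from the values, 810 genes were called, and 4 without C3Bir unstimulated array 1 alone. The NF-kB list on C3Bir unstimulated arrays averaged 9.60 on one and 10.78 and 10.82 on the other two, which lie above all C3Bir flagellin arrays (9.80 to 9.97).

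Against B6, 456 genes passed, 2.51% of those tested, of which 204 (1.12%) had the higher change in CB-R1 and 252 (1.39%) the lower. Cxcl10 differed by 4.51 ± 1.18, Mx1 by 4.17 ± 1.08 and Oasl1, of the oligoadenylate synthetase family, by 3.90 ± 1.00 (log2 ± SE, largest limma adjusted p 0.0473). Of the 42 interferon-stimulated genes 24 passed with a higher change in CB-R1 and 0 with a lower. On these genes the B6 unstimulated arrays averaged 11.10 to 12.05 and the B6 flagellin arrays 9.05 to 10.76, and the list's median change was -1.80 in B6 and 0.35 in CB-R1. The count was 0 in a fit of the 12 arrays of both strains, 0 without B6 unstimulated array 2 or array 3, and 0 without any 1 of CB-R1 unstimulated arrays 1 and 2, the 3 CB-R1 flagellin arrays or B6 flagellin array 3. Leaving out B6 unstimulated array 1 raised it to 3117, and leaving out B6 flagellin array 2 to 1082.

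Against BC-R3, 0 genes passed (limma, 24 arrays, 443 genes or 2.44% at an unadjusted p under 0.05). For the NF-kB list the median change was 0.29 in CB-R1 and 0.35 in BC-R3, and for the interferon-stimulated genes it was 0.35 and 0.01. Cxcl10 changed by 1.00 in CB-R1 and by 0.07 in BC-R3, a difference of 0.93 ± 1.18 (log2 ± SE). These BC-R3 values turn on single arrays. On the interferon-stimulated genes BC-R3 unstimulated array 1 averaged 10.82 and arrays 2 and 3 averaged 9.49 and 9.33, and on the NF-kB list they averaged 10.70, 9.39 and 9.39. Without array 1 the BC-R3 median was 0.44 for the interferon-stimulated genes and 0.68 for the NF-kB list, and Cxcl10 changed by 1.31. Leaving out unstimulated array 2, unstimulated array 3 or flagellin array 3 turned the interferon list median to -0.19, -0.23 and -0.23 and the Cxcl10 change to -0.43, -0.66 and -0.40. No order of CB-R1 and BC-R3 is read from these values. Across all genes the changes in CB-R1 and BC-R3, which share no arrays, had a Pearson correlation of 0.42, against -0.26 with C3Bir and -0.28 with B6, and genes are not independent replicates. On ranks the values were nearer 0, with Spearman correlations of 0.33, -0.10 and -0.12. Without any 1 BC-R3 array the Pearson value lay between 0.24 and 0.51.

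**Figure D5:**
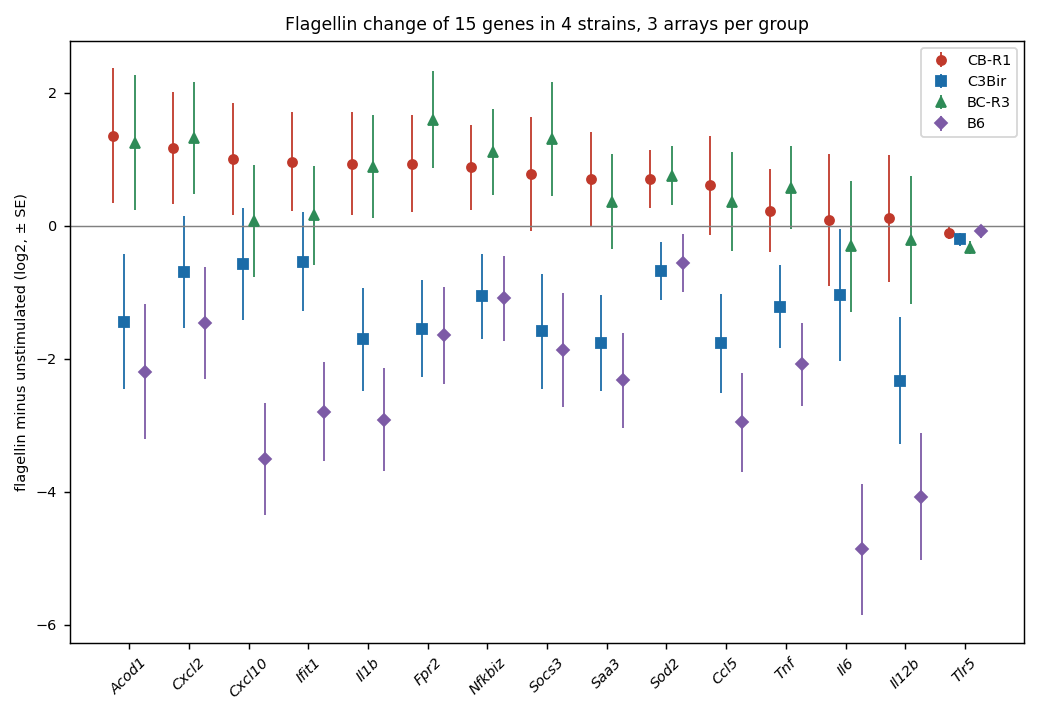
Flagellin minus unstimulated on the log2 scale (vertical axis) of 15 genes in CB-R1, C3Bir, BC-R3 and B6, with 3 arrays per group and error bars of ± 1 SE from the fit of 24 arrays. CB-R1 and BC-R3 lie above 0 for Acod1, Cxcl2, Il1b and Fpr2, where C3Bir and B6 lie below it, and Tlr5 lies near 0 in all 4.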

How the data were processed

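A single table of log2 values, deposited by the authors, covers 24 Affymetrix arrays with 45037 probe sets, of which 4 had no values. The sources used here do not give the summary or normalization method, and values were used as deposited. Of the probe sets 34944 had 1 gene symbol, and each of 18193 genes was represented by the probe set with the highest mean.

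Groups came from the array titles. Changes were tested two-sided with limma 3.58.1 in R 4.3.3 (lmFit on group means over 24 arrays, eBayes defaults, Benjamini-Hochberg over all genes, adjusted p under 0.05 called). Equal numbers were taken to pair CB-R1 arrays because every same-number correlation of deviations was over 0.1 (0.31, 0.30 and 0.50). A fit with the number as a block is therefore printed beside the unpaired fit. The pairing was thus chosen from the values then tested, and the correlations are not independent of each other. Unstimulated array 1 and flagellin array 2, whose numbers differ, also reached 0.102. Scripts were tested on simulated data. The 19 gene lists, 11 marker lists and the strains compared were chosen with earlier results of these data known. Genes named were the 12 largest rises and falls with unadjusted p under 0.05, no overlap and a mean of at least 7, up to 4 members per list, a fixed set including Tlr5, Il10 and Tnf, and the 5 largest differences per direction with unadjusted p under 0.05 and a mean of at least 7. Other paired calls were named after their values were seen. Alternatives covered normalization, filters, probe sets, eBayes options, array weights, blocks and left-out arrays. The small number of arrays limits the precision.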

Additional observations from a re-analysis of the deposited data

Results flagged for a closer look

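For 17 named genes the flagellin change differed between CB-R1 and B6 by the test of the difference itself (limma, 24 arrays, adjusted p 0.0359 to 0.0473). Over all 18193 genes 456, or 2.51%, did so. The named genes include the largest differences of this same comparison at an unadjusted p under 0.05, so nothing is read from the count of 17. Values are CB-R1 minus B6 on the log2 scale. Higher in CB-R1 were the changes of the interferon-induced genes Cxcl10 (4.51), Mx1 (4.17) and Oasl1 (3.90), the cytokine gene Il15 (2.89), the cytokine signalling inhibitor Socs1 (2.01), the double-stranded RNA receptor Tlr3 (1.60), the peptide transporter Tap2 (1.29) and the immunoproteasome subunit Psmb8 (0.84). Lower in CB-R1 were the changes of the oxysterol receptor Gpr183 (-2.22), the long noncoding RNA Neat1 (-1.94), the circadian transcription factor Dbp (-1.83), the stress gene Gadd45a (-1.16), Cdca7 (-0.90), Acbd5 (-0.87), Dmxl1 (-0.82), the nucleotide hydrolase Dut (-0.71) and Dctn6 (-0.64). None of these differences was called in a fit of the 12 arrays of CB-R1 and B6 alone, where 0 genes passed and 4156 had an unadjusted p under 0.05.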

How the results depend on the processing

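With 24 arrays the count for CB-R1 was 0 under every alternative except the replicate block on its own 6 arrays, which gave 68. Of that paired count, no block gave 0, quantile normalization 18, median centring 103, averaged probe sets 6, all probe sets 16, trend and robust eBayes 196, and the block on 12 or 24 arrays 0. Leaving out a pair gave 73 to 152. These alternatives to the paired fit, and the exclusion of array 1 of the unstimulated B6, C3Bir and BC-R3 groups, were chosen after seeing the data. The difference from C3Bir was 0 except with that exclusion (810) and when single arrays were left out (0 to 4). The difference from B6 became 0 with the compared strains alone, with or without the replicate block, without unstimulated arrays 2 and 3 of B6 and C3Bir, and with averaged probe sets. It was 4001 with the exclusion above, 715 after median centring, 807 with the filter, 291 with all probe sets, 241 with trend and robust options, and 0 to 3117 when single arrays were left out. Its split of 204 higher and 252 lower became 200 and 515 after median centring and 218 and 158 after quantile normalization. The difference from BC-R3 was 0 throughout. Signs turned for Il12b with averaged probe sets (-0.036), for Naip5 (-0.040 to 0.12) and Il10 (-0.0046 to 0.15) with single arrays left out, and for Arhgap18 (0.036) and Mertk (0.079) against C3Bir when the 4 unstimulated arrays named above were left out. The causes were not tested. In B6 and BC-R3 the numbers did not pair, so a block there joins arrays that share only a number.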

Other observations

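Several groups outside inflammation showed small values without calls. Of 20 sterol, lipogenic and LXR genes 0 passed the paired fit, but 6 had flagellin arrays that all lay above the unstimulated ones, where 5.79% of all genes did. Fdps, of farnesyl diphosphate synthesis, had 0.33, Idi1, of isoprenoid synthesis, 0.31, and Nr1h3, the LXR alpha receptor, 0.38 (log2, limma paired adjusted p 0.0698, 0.0934 and 0.0655). Of 19 lysosome genes 10 were lower in all 3 pairs, against 17% of all genes, and 1 was higher, with a median of -0.07 that became -0.01 after quantile normalization and 0 calls. Of 18 unfolded protein and heat shock genes 8 were lower and 1 higher in all 3 pairs, with Hspa5, the chaperone BiP, at -0.12.

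Over all genes 68 were called, or 0.374%. On chromosome 3 this held for 3 of 921 tested genes, a share close to that of all genes: Tlr2, Sema4a and Dkk2. Whether they lie in the congenic segment was not examined.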
